A study of Mus musculus with 18 samples.

Results

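The 10 genes described here mark the melanocyte lineage and the making of pigment, and were followed through tumors of B16F10, a mouse melanoma line grown under the skin of female C57BL/6 mice. They were picked by name, as *Mitf*, *Sox10*, *Tyr*, *Tyrp1*, *Dct*, *Pmel*, *Mlana*, *Slc45a2*, *Gpr143* and *Oca2*, out of 41079 genes in the expression table. Their mRNA was measured by poly(A) RNA sequencing in 18 tumors, 3 in each of 6 groups. By the sample records, mice received 100000 B16F10 cells under the skin of the right flank (the published methods give another number), and from day 6 every tumor was injected at intervals of 2 days. Tumors were taken 48 h after the last of these intratumoral injections, so each group carries the same line and the same schedule and differs in what was injected. PBS tumors received saline alone. Free PS473 tumors received PS473, a Pistol ribozyme directed at the mRNA of PD-L1, without a carrier, and PS473@CPs tumors received it on cationic polymers. NKMOF-101-[Mn] tumors received an empty manganese metal-organic framework, M5@NKMOF-101-[Mn] tumors the framework with an inactive mutant ribozyme, and PS473@NKMOF-101-[Mn] tumors the framework with PS473. The sample titles of the last group write the framework as NKMOF-102-[Mn], while the treatment text names NKMOF-101-[Mn]. The age of the mice is not given in the sources used here. The tumors are whole transplants of 1 line with the host cells around it, and nothing states that tumors of a group came from separate experiments, so p-values measure the spread between these tumors.

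In melanocytes the transcription factor Mitf sits above a program of pigment genes, and Sox10, a neural crest factor, is known to drive *Mitf* itself and to act with it on several of its targets. Pigment is made inside melanosomes, lysosome-related organelles that are laid down on fibrils of Pmel, filled with the enzymes Tyr, Tyrp1 and Dct, and held at a suitable pH by transporters such as Slc45a2 and Oca2. In melanoma the program is known to run at different levels between tumor cells, from pigmented to dedifferentiated states.

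Every one of the 10 genes was detected in every tumor, which fits the label of a melanoma of the melanocyte lineage, and all 10 passed the filter of a mean of at least 1 FPKM that 12357 genes passed. FPKM divides a gene's fragments by its length and by the tumor's total of fragments assigned to genes. Levels of different genes can be set side by side only as far as the 1 deposited length of each gene fits its mRNA. That length was 15975 bases for *Mitf*, 7025 for *Tyr*, 2263 for *Dct* and 860 for *Mlana*. Whether it fits the mRNA made in these tumors was not tested. The tumors held 17212000 to 28401000 assigned fragments, and a single value of the 10 genes rested on 517 to 185251 of them. Together the 10 genes took 1.41% to 2.35% of a tumor's fragments, with a median of 2.02%. By mean FPKM *Dct* was rank 5 of all genes, *Pmel* rank 18 and *Tyrp1* rank 31. In bulk tumors, fewer melanoma cells and less of an mRNA per melanoma cell cannot be told apart. Markers of skin varied widely: *Krt14*, a keratin of basal keratinocytes, lay between 0 and 2058 FPKM, and 8 of 18 tumors had less than 1 FPKM of it. The 13 hair follicle genes listed, the other place in skin where melanocytes work, summed to at most 1.23 FPKM in a tumor, with *Krt31* and *Krt33a* at 0 in all 18.

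*Mitf*, the lineage's own transcription factor, had 33.3, 34.1 and 55.8 FPKM in the PBS tumors, 33.0, 44.5 and 27.8 with Free PS473 and 39.6, 24.4 and 32.9 in the PS473@CPs tumors. It had 37.8, 33.7 and 36.9 FPKM with the empty framework, 38.5, 37.5 and 34.6 with M5 in the framework and 38.1, 41.4 and 35.8 with PS473 in it. The highest tumor was PBS 3 and the lowest PS473@CPs 2, so both ends of the range lay outside the framework groups, and the 6 groups overlapped. *Sox10* had 174, 204 and 247 FPKM in PBS, 261, 264 and 185 in Free PS473 and 252, 157 and 230 in PS473@CPs tumors. In the framework groups it had 205, 219 and 250 FPKM with the empty framework, 239, 215 and 215 with M5 and 230, 231 and 279 with PS473. PS473@CPs 2 was again the lowest tumor, and PS473@NKMOF-101-[Mn] 3 the highest.

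*Tyr* encodes tyrosinase, the rate-limiting enzyme of melanin synthesis, and had the lowest FPKM of the 3 pigment enzymes. It had 96.4, 60.3 and 88.9 FPKM in PBS, 58.2, 81.1 and 60.7 in Free PS473 and 63.2, 64.5 and 89.4 in PS473@CPs tumors. It had 67.2, 86.2 and 52.3 FPKM in NKMOF-101-[Mn], 101, 78.1 and 117 in M5@NKMOF-101-[Mn] tumors, and 74.6, 103 and 92.0 in PS473@NKMOF-101-[Mn] tumors. Each group overlapped with each of the others that it was compared with, and the highest tumor, M5@NKMOF-101-[Mn] 3, stood 2.24 times above the lowest, NKMOF-101-[Mn] 3.

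*Tyrp1*, which encodes an enzyme-related protein that stabilises tyrosinase, had 1132, 964 and 1304 FPKM in PBS, 866, 1315 and 702 in Free PS473 and 956, 920 and 1178 in PS473@CPs tumors. It had 1008, 1185 and 1044 FPKM in NKMOF-101-[Mn], 1265, 1256 and 1275 in M5@NKMOF-101-[Mn] tumors, and 1292, 1159 and 1248 in PS473@NKMOF-101-[Mn] tumors. Free PS473 held both the highest and the lowest of the 18 tumors, while the 3 M5 tumors were the closest to each other, with an SD of 9.15 FPKM. *Dct*, or dopachrome tautomerase, had the highest FPKM of the 10 genes in every tumor. It had 3227, 2342 and 2616 FPKM in PBS, 2389, 2994 and 2345 in Free PS473 and 2298, 2087 and 2882 in PS473@CPs tumors. It had 2167, 2904 and 2403 FPKM in NKMOF-101-[Mn], 3185, 2708 and 3416 in M5@NKMOF-101-[Mn] tumors, and 2901, 2763 and 2718 in PS473@NKMOF-101-[Mn] tumors. Its values covered a 1.64-fold range, the narrowest of the 10.

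Mitf binds E-boxes, and the M-box, an E-box flanked by a T, is the form known from the promoters of the pigment enzymes. The RefSeq promoter windows, 250 bases before to 50 after a gene start on GRCm38.p6, were searched for TCATGTG on either strand. Windows were at hand for 5 of the 10 genes, *Tyrp1*, *Tyr*, *Dct*, *Oca2* and *Mitf*, the last with 3 windows. The letters were found in *Tyrp1*, *Tyr* and *Dct*, in the last at both strands, while 3.77% of all 32851 windows hold them. *Oca2* has the inner CATGTG alone, which every TCATGTG also contains and 14.2% of all windows hold. None of the 7 windows has CACGTG, held by 7.15% of all. The stretches of 60 bases are given in gene direction for the 3 enzymes whose values are set out above, with the letters found in capitals (CACATGA is TCATGTG on the other strand). They start 47 bases before the gene start in *Tyrp1*, 22 in *Tyr*, and 232 and 151 in *Dct*. The submitters' notes name GRCm39 for the data, so these positions belong to the earlier build alone.
Tyrp1 (chr4:80834140-80834199, plus strand): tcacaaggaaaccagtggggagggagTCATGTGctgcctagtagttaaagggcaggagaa
Tyr (chr7:87493513-87493572, minus strand): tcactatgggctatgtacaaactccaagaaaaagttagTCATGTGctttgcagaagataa
Dct distal (chr14:118052437-118052496, minus strand): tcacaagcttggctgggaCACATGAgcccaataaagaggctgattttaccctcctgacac
Dct proximal (chr14:118052364-118052423, minus strand): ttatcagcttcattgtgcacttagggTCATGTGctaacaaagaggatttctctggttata
A match describes the letters in the window and is not a measured binding site.

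*Pmel*, which encodes the fibril protein of early melanosomes, had 1337, 1084 and 1360 FPKM in PBS, 1059, 1582 and 893 in Free PS473 and 1093, 986 and 1583 in PS473@CPs tumors. It had 1109, 1471 and 1168 FPKM in NKMOF-101-[Mn], 1749, 1455 and 1836 in M5@NKMOF-101-[Mn] tumors, and 1525, 1482 and 1631 in PS473@NKMOF-101-[Mn] tumors. All 3 M5 tumors and all 3 PS473@NKMOF-101-[Mn] tumors were above all 3 PBS tumors, and the PS473@NKMOF-101-[Mn] tumors were above the empty framework's as well. Of all tested genes, 8.11%, 4.66% and 7.91% did not overlap in these 3 comparisons, in either direction. *Mlana* encodes Melan-A, a melanosomal membrane protein that associates with Pmel. It had 911, 524 and 591 FPKM in PBS, 555, 668 and 620 in Free PS473 and 761, 759 and 769 in PS473@CPs tumors. It had 627, 890 and 536 FPKM in NKMOF-101-[Mn], 847, 631 and 752 in M5@NKMOF-101-[Mn] tumors, and 676, 817 and 778 in PS473@NKMOF-101-[Mn] tumors. PBS held both its highest and its lowest tumor, and PS473@CPs tumor 2, the lowest of all for 4 of the other genes, was above the median of *Mlana*.

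*Slc45a2*, a melanosomal transporter, had 215, 173 and 256 FPKM in PBS, 208, 256 and 176 in Free PS473 and 222, 164 and 253 in PS473@CPs tumors. It had 219, 267 and 182 FPKM in NKMOF-101-[Mn], 296, 225 and 269 in M5@NKMOF-101-[Mn] tumors, and 240, 256 and 271 in PS473@NKMOF-101-[Mn] tumors. *Gpr143*, a receptor in the melanosome membrane that controls melanosome size and number, had 18.5, 12.6 and 18.9 FPKM in PBS, 13.8, 23.8 and 11.4 in Free PS473 and 18.3, 13.1 and 20.3 in PS473@CPs tumors. It had 15.2, 21.7 and 14.6 FPKM in NKMOF-101-[Mn], 28.7, 16.7 and 22.8 in M5@NKMOF-101-[Mn] tumors, and 22.8, 21.1 and 21.5 in PS473@NKMOF-101-[Mn] tumors. The 3 PS473@NKMOF-101-[Mn] tumors were above all PBS and all PS473@CPs tumors, where 4.66% and 4.12% of all tested genes did not overlap in either direction. *Oca2*, which encodes a melanosomal membrane protein linked to chloride conductance, had 24.7, 17.4 and 22.0 FPKM in PBS, 10.8, 27.7 and 7.50 in Free PS473 and 15.7, 15.3 and 28.1 in PS473@CPs tumors. It had 10.8, 23.5 and 14.7 FPKM in NKMOF-101-[Mn], 32.7, 24.8 and 37.9 in M5@NKMOF-101-[Mn] tumors, and 26.0, 26.6 and 22.9 in PS473@NKMOF-101-[Mn] tumors. Its highest tumor was 5.05 times its lowest, the widest range of the 10, and 91.0% of the tested genes had a smaller SD within groups.

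**Figure D1:**
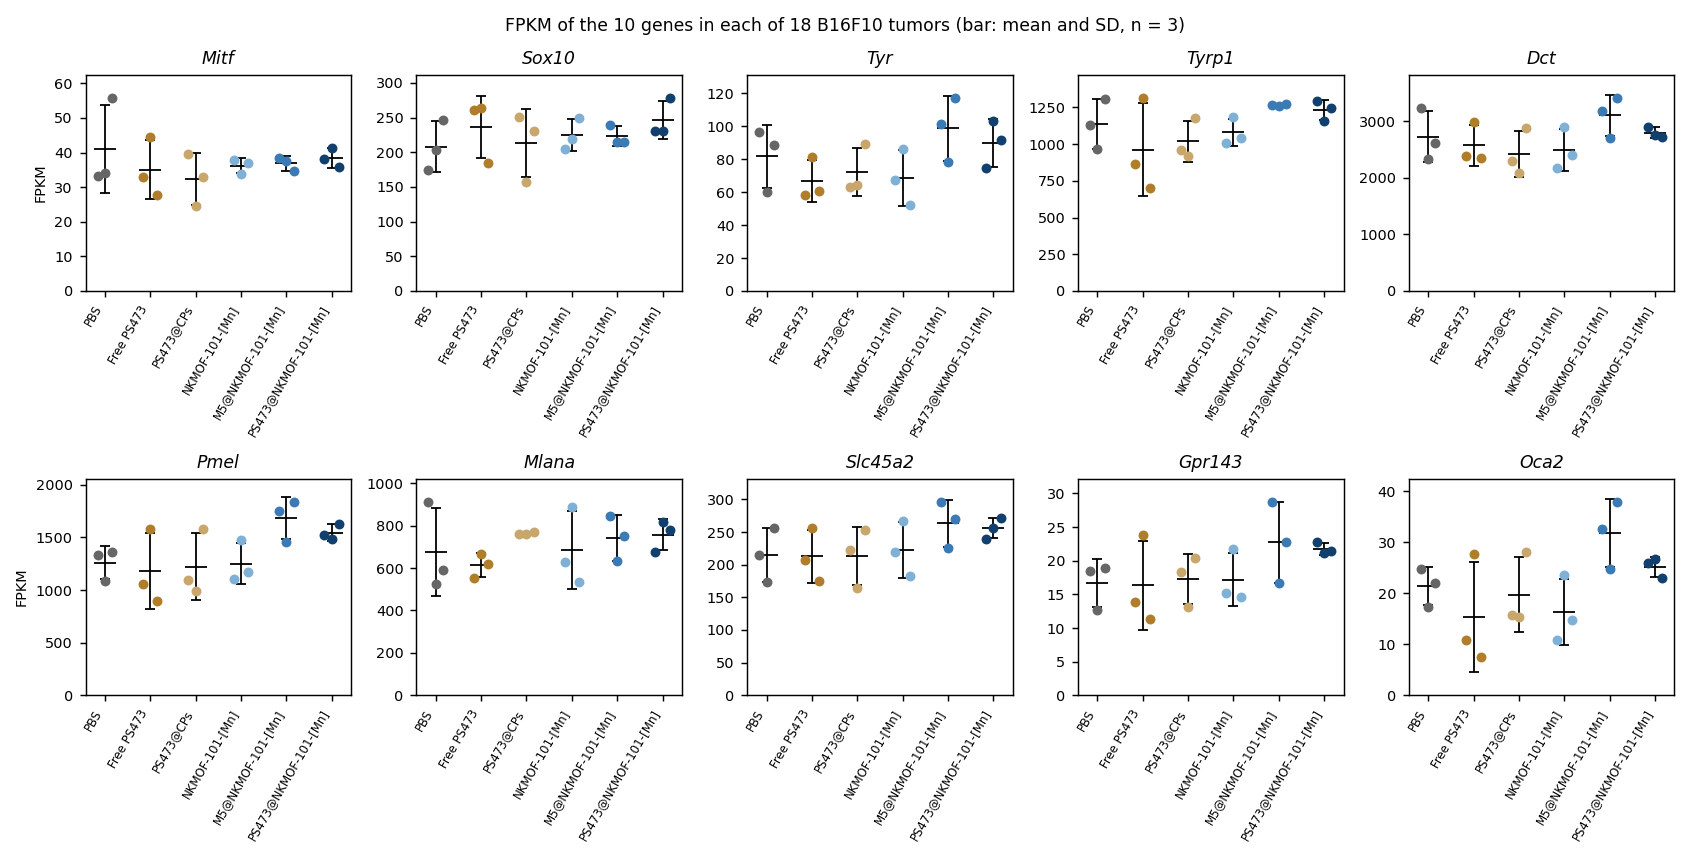
FPKM (vertical axes, linear from 0, 1 panel a gene) of the 10 genes in the 18 tumors by group, with a dot for each tumor and bars for the mean and SD of 3 tumors. Tumors of a group spread about as widely as the groups differ, for example *Oca2* at 7.50 to 27.7 FPKM in Free PS473.

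By level the genes ran *Dct*, *Pmel*, *Tyrp1*, *Mlana*, *Slc45a2*, *Sox10*, *Tyr*, *Mitf*, *Oca2* and *Gpr143*. The first 4 steps of that order held in 18 of 18 tumors, as did *Sox10* over *Tyr* and *Tyr* over *Mitf*. *Slc45a2* was above *Sox10* in 11 of 18, so these 2 neighbours were not separated, and *Oca2* was above *Gpr143* in 14 of 18. *Mitf* was above *Oca2* in 17 of 18. The enzymes stood far apart in FPKM, with *Dct* 26.7 to 45.9 times and *Tyrp1* 10.9 to 19.9 times the value of *Tyr* in the same tumor. Both the order and these ratios rest on the deposited gene lengths. On the log2(FPKM + 1) scale the SD within groups had a median of 0.26 over the 10 genes, beside 0.18 over all tested genes, and was lowest for *Dct* at 0.20 and highest for *Oca2* at 0.50.

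Whether the material injected moved these genes was asked with 1 limma fit of log2(FPKM + 1) over all tested genes and all 18 tumors. Across the 6 groups, 0 of the 10 genes passed limma's F test at a Benjamini-Hochberg adjusted p under 0.05, and of all 12357 tested genes 0.0% passed. The smallest unadjusted p of the 10 in that F test was 0.0669 for *Oca2*. None of the 10 genes passed in any of the 9 comparisons of pairs of groups either, nor in the mean of the 3 framework groups against the mean of the other 3, and the share of all genes called was 0.0% in each. At an unadjusted p under 0.05, limma's fit held 2 of the 10 in PS473@NKMOF-101-[Mn] against Free PS473 and 1 of the 10 in the framework groups against the rest, with 0 of the 10 in the other 8 comparisons. The background at that threshold was 4.98% of tested genes in the first of these, 4.56% in the second and 0.591% to 2.3% in the other 8.

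PS473@NKMOF-101-[Mn] against Free PS473 asks what the framework adds to the ribozyme, and all 10 genes had a higher mean with the framework. Most of the 10 genes varied together between tumors, as set out below. Counts of genes above 0, here and in the next comparisons, are therefore not counts of independent results. The largest difference was that of *Oca2*, 0.88 ± 0.37 (SE) on the log2 scale with an unadjusted 95% interval of 0.08 to 1.68 and 3 tumors a group. *Pmel* differed by 0.43 ± 0.21 (SE), *Tyr* by 0.43 ± 0.23 and *Tyrp1* by 0.41 ± 0.18, and *Gpr143* by 0.46 ± 0.26. The smallest differences were those of *Sox10* at 0.07 ± 0.18, *Dct* at 0.13 ± 0.16 and *Mitf* at 0.15 ± 0.20. Adjusted p in limma's fit lay between 0.960 and 0.988 for the 10 genes. The unadjusted p was 0.0340 for *Oca2* and 0.0432 for *Tyrp1* in that limma fit. The median of the 10 was 0.35, beside -0.04 over all tested genes, of which 38.5% were above 0. The Free PS473 tumors lay far apart: tumor 3 had the lowest level of 4 of the 10 genes and tumor 2 was above the median of the 18 tumors for 9. Without tumor 3 the median was 0.23 and without tumor 2 it was 0.50. The difference of *Oca2* was 0.50 without tumor 3 and 1.38 without tumor 2, and that of *Tyrp1* was 0.21 and 0.66. *Mlana* alone did not overlap between the groups, and 6.82% of all tested genes did not.

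Against PS473@CPs, the polymer carrier, PS473@NKMOF-101-[Mn] tumors had a median log2 difference of 0.28 over the 10 genes, with 9 above 0 and a range of -0.02 to 0.39. All genes tested had a median of 0.00128 there. *Gpr143* alone did not overlap, beside 4.12% of tested genes. PS473@CPs tumor 2 was the lowest of all 18 for 4 of the 10, and without it the median was 0.14. Without PS473@CPs tumor 3 it was 0.41.

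Against the empty framework the median was 0.20, with 10 of 10 above 0 and differences of 0.09 to 0.66, the largest for *Oca2*. *Pmel* alone did not overlap, beside 7.91% of tested genes, and all tested genes had a median of -0.04. Without NKMOF-101-[Mn] tumor 2 the median of the 10 was 0.37. Against M5@NKMOF-101-[Mn], which differs by the activity of the ribozyme, the median was -0.04 with 3 above 0 and 7 below, and a range of -0.31 to 0.14. The background median was -0.01, and 0 of the 10 did not overlap where 4.48% of tested genes did not. The median was 0.01 without M5 tumor 1 and -0.18 without M5 tumor 2.

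PBS tumors were injected too, with saline alone. Against PBS, PS473@NKMOF-101-[Mn] tumors had a median of 0.22 with 9 of 10 above 0, and M5@NKMOF-101-[Mn] tumors one of 0.24 with 9 of 10 above 0. All tested genes had medians of -0.01 in both. *Pmel* and *Gpr143* did not overlap in the first, beside 4.66% of tested genes, and *Pmel* and *Oca2* in the second, beside 8.11%. The empty framework gave a median of -0.04 with 4 above 0, PS473@CPs one of -0.11 with 3 above 0 and Free PS473 one of -0.12 with 1 above 0. In these 3 comparisons 0 of the 10 did not overlap, beside 6.02%, 5.11% and 4.91% of tested genes. Without PBS tumor 2 the first median was 0.07, the second 0.10 and the empty framework's -0.16, without PBS tumor 1 the second was 0.36, and without PBS tumor 3 the empty framework's was 0.04. For PS473@CPs it was 0.03 without its tumor 2 and -0.27 without its tumor 3, and for Free PS473 it was -0.36 without its tumor 2 and -0.04 without its tumor 3. These 5 comparisons share the PBS tumors.

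The mean of the 3 framework groups was above the mean of the other 3 for all 10 genes, with a median log2 difference of 0.21. *Oca2* differed by 0.38 ± 0.22 (SE), *Pmel* by 0.30 ± 0.12, *Gpr143* by 0.29 ± 0.15, *Tyrp1* by 0.22 ± 0.11, *Slc45a2* by 0.22 ± 0.11 and *Tyr* by 0.21 ± 0.13, over 9 tumors a side. *Dct* differed by 0.12 ± 0.09, *Sox10* by 0.09 ± 0.11, *Mlana* by 0.09 ± 0.12 and *Mitf* by 0.07 ± 0.12. *Pmel* had an unadjusted 95% interval of 0.04 to 0.56 and, in limma's fit, an unadjusted p of 0.0259. The adjusted p of all 10 genes in limma's fit lay between 0.9002 and 0.927. All tested genes had a median of -0.01, with 47.6% above 0. Without Free PS473 tumor 3 *Pmel* differed by 0.24, and without Free PS473 tumor 2 by 0.38. The pooled values joined unlike groups, since the empty framework's means lay below the PBS means for 6 of the 10 genes.

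**Figure D2:**
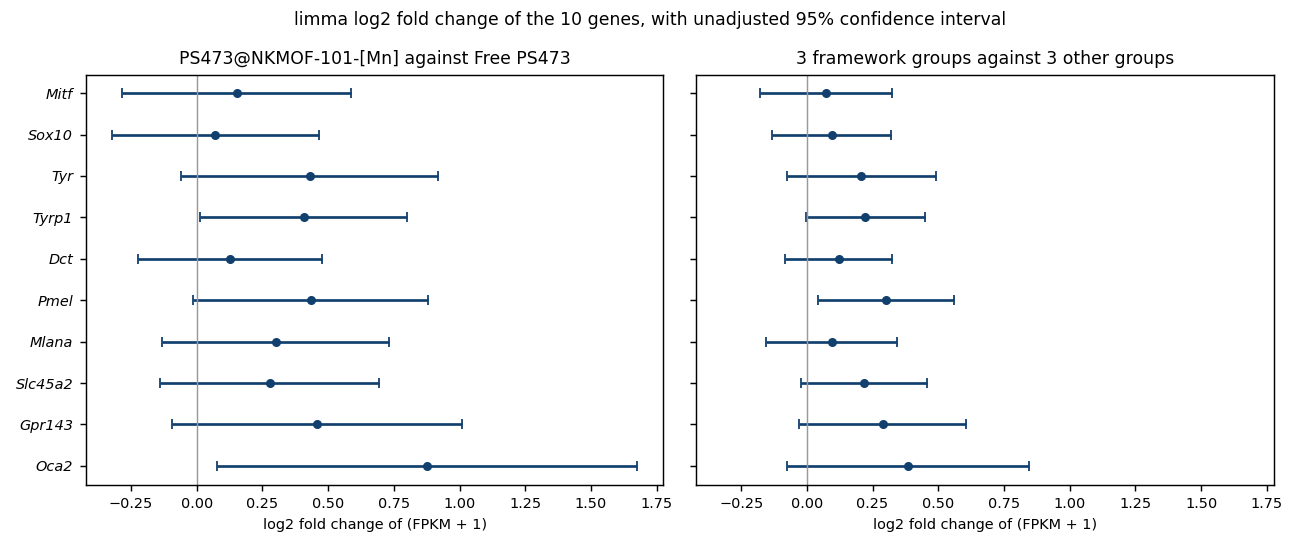
Difference in log2(FPKM + 1) (horizontal axis) of the 10 genes with unadjusted 95% intervals from limma, for PS473@NKMOF-101-[Mn] against Free PS473 (left) and for the 3 framework groups against the other 3 (right). All 20 points lie above 0, and the intervals of *Oca2* and *Tyrp1* on the left and *Pmel* on the right do not reach it.

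Content of other cells was set beside the levels. The summed FPKM of 11 fibroblast genes was 73.9 to 726 in PBS, 39.8 to 366 in Free PS473, 82.7 to 792 in PS473@CPs and 182 to 691 in NKMOF-101-[Mn] tumors. It was 81.1 to 97.5 in M5@NKMOF-101-[Mn] tumors, and 83.3 to 277 in PS473@NKMOF-101-[Mn] tumors, so that these groups had the lowest maxima. Of the fibroblast markers, *Col1a1* ran from 13.7 to 292 FPKM and none was at 0 in any tumor. Of 30 relations of the 10 genes with fibroblast, leukocyte and keratinocyte scores over 18 tumors, the strongest by Pearson r was *Dct* with fibroblasts (r = -0.629, rho = -0.558, adjusted permutation p = 0.095 and 0.134). By Spearman rho it was *Sox10* with leukocytes (rho = -0.67, r = -0.578, adjusted permutation p = 0.0915 and 0.095). Without the 2 tumors farthest out, r was -0.418 for the first and -0.464 for the second. Most leukocyte relations went the other way: apart from *Mitf* and *Sox10*, all became more negative. *Gpr143* with leukocytes went from -0.533 to -0.694 and *Mlana* from -0.259 to -0.571. With group means subtracted, *Gpr143* with leukocytes had r = -0.707. These further coefficients carry no test. None of the 30 had an adjusted p under 0.05. These 30 tests were added after the data were seen. Endothelial and erythroid genes were not scored in them. With the fibroblast score as a covariate, an alternative added after the data were seen, the median of the 10 genes was 0.19 in the framework groups against the rest and 0.37 in PS473@NKMOF-101-[Mn] against Free PS473. The medians against PBS were 0.13 for PS473@NKMOF-101-[Mn] and 0.14 for M5@NKMOF-101-[Mn] in that fit, and 0 of the 10 genes passed in any comparison. The 9 tested fibroblast genes themselves had median log2 differences of -0.242 in the framework groups against the rest and 0.0847 against Free PS473. For PS473@NKMOF-101-[Mn] they had -1.2 against the empty framework and -0.996 against PS473@CPs, with 0 above 0 in either. Medians of the covariate fit are not given here for those last comparisons.

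A set of 7 genes, *Tyr*, *Tyrp1*, *Dct*, *Pmel*, *Slc45a2*, *Gpr143* and *Oca2*, went up and down together from tumor to tumor. Their 21 pairs had Pearson r of 0.717 to 0.928 with a median of 0.843 over 18 tumors, and a median of 0.815 after each group's mean was subtracted. The median was 0.817 in the 8 tumors with under 1 FPKM of *Krt14* and 0.812 with the fibroblast score regressed out. Genes of 1 tumor share that library's depth and its content of other cells, and these 7 genes were set apart after the values were seen, so the coefficients are a description. *Mlana* followed the 7 less closely, at r of 0.353 for *Tyrp1* to 0.697 for *Tyr*. *Sox10* ran from 0.0855 with *Tyr* to 0.558 with *Slc45a2*.

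**Figure D3:**
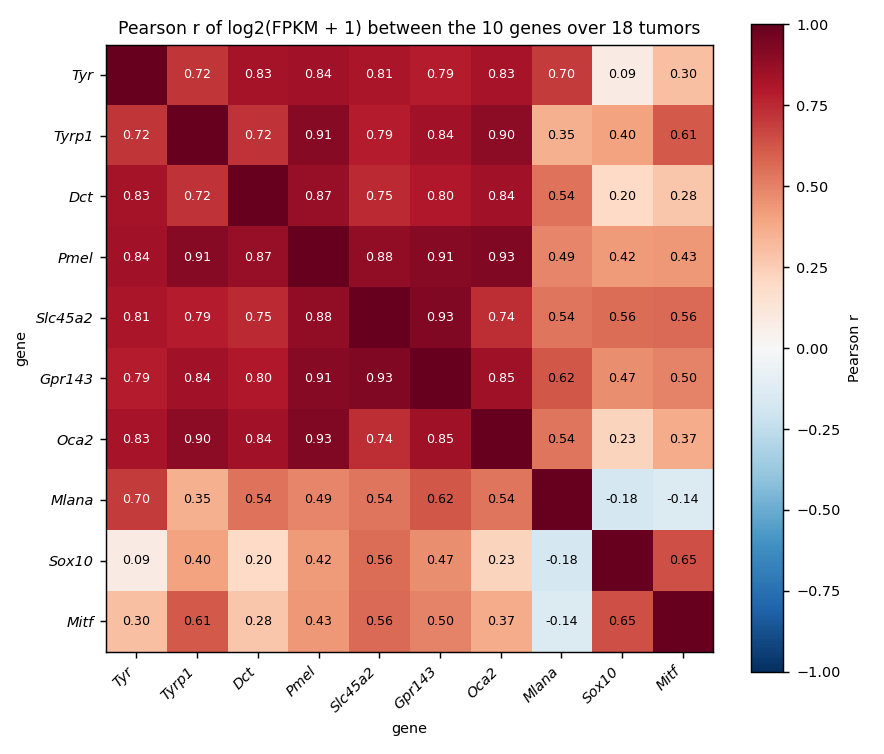
Pearson r of log2(FPKM + 1) over 18 tumors for each pair of the 10 genes, from -1 (blue) to 1 (red). The 7 genes at the top left have r of 0.717 to 0.928 with each other, and *Mlana*, *Sox10* and *Mitf* have lower values with them.

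The relation of *Mitf* with each of the other 9 genes was tested over the 18 tumors with 100000 permutations, adjusted over the 9. *Sox10* had r = 0.648 (rho = 0.548, adjusted permutation p = 0.0339 for r and 0.0921 for rho). *Tyrp1* had r = 0.612 (rho = 0.604, adjusted permutation p = 0.0360 and 0.081), and *Slc45a2* had r = 0.564 (rho = 0.488, adjusted permutation p = 0.0380 and 0.0929). *Gpr143* followed at r = 0.497, *Pmel* at 0.432, *Oca2* at 0.372, *Tyr* at 0.301 and *Dct* at 0.277, and *Mlana* had r = -0.139, with adjusted permutation p from 0.0758 to 0.589. By rank none of the 9 passed. Within groups, after subtracting group means, r was 0.755 for *Sox10*, 0.626 for *Tyrp1*, 0.619 for *Slc45a2* and 0.559 for *Gpr143*, with adjusted permutation p of 0.00216, 0.0186, 0.0186 and 0.0349. These permutations moved the centred values freely over the 18 tumors and made no allowance for the means subtracted. Their p-values tend to be too small, so the within-group r is a description.

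Which *Mitf* relations passed changed when tumors were left out, while r stayed between 0.484 and 0.712 for *Sox10*, 0.525 and 0.658 for *Tyrp1* and 0.418 and 0.606 for *Slc45a2* with any 1 tumor removed. Without the 2 tumors farthest from the median of *Mitf*, PBS 3 and PS473@CPs 2, r was 0.524 for *Sox10*, 0.606 for *Tyrp1* and 0.437 for *Slc45a2*, and the adjusted permutation p was 0.11 or more for all 9. The 3 relations that passed became 0 without Free PS473 tumor 2, without Free PS473 tumor 3 or without PS473@CPs tumor 2, became 1 without Free PS473 tumor 1 and became 5 without PBS tumor 3. None passed with the fibroblast score regressed out, where *Sox10* had r = 0.590 with an adjusted permutation p of 0.101.

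**Figure D4:**
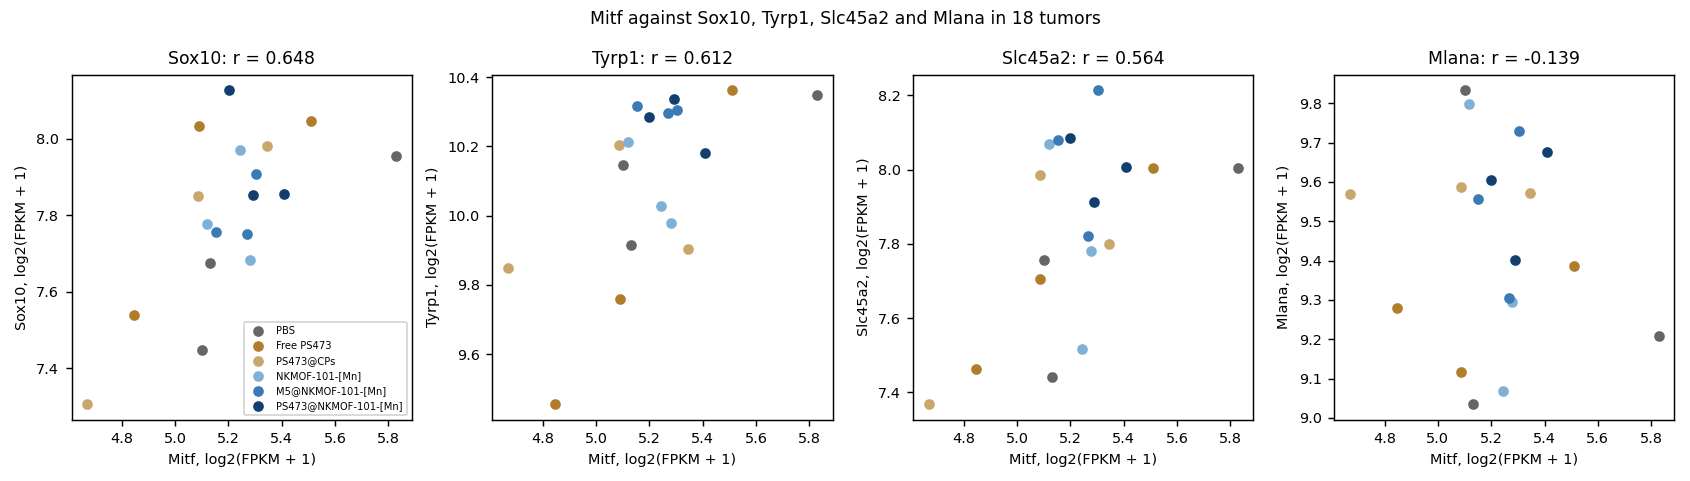
*Mitf* (horizontal axes) against *Sox10*, *Tyrp1*, *Slc45a2* and *Mlana* (vertical axes), all in log2(FPKM + 1), with 1 dot for each of 18 tumors colored by group and r in each title. PS473@CPs tumor 2 at the lower left and PBS tumor 3 at the right are the tumors with the lowest and highest *Mitf*.

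Tumors were set along this axis by the mean z-score of the 10 genes, a tumor's distance from the gene's mean over 18 tumors in SDs. Free PS473 tumor 3 was lowest at -1.53 and above the median of 0 of 10 genes. PS473@CPs tumor 2 followed at -1.27 and PBS tumor 2 at -0.96. M5@NKMOF-101-[Mn] tumors 1 and 3 were highest at 1.10 and 0.93, the first above the median of 10 of 10 genes. The 3 lowest tumors also had the highest summed leukocyte FPKM of the 18, at 720, 608 and 716 in that order. Their summed fibroblast FPKM was 366, 792 and 726. The M5 tumors 1 and 3 had 221 and 337 FPKM of leukocyte and 81.1 and 97.5 of fibroblast genes. Whether content of host cells set the tumors' places along this axis was not tested. The 3 PS473@NKMOF-101-[Mn] tumors lay close together at 0.42, 0.62 and 0.66, whereas the 3 Free PS473 tumors ran from -1.53 to 0.74. In the group means, M5@NKMOF-101-[Mn] was the highest group for 7 of the 10 genes, and *Mitf* was highest in PBS, *Sox10* in PS473@NKMOF-101-[Mn] and *Mlana* in PS473@CPs.

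Of the 12347 tested genes outside the list, those with the highest r with that mean z-score were *Slc24a5* (0.978), *Trpm1* (0.974), *Brca1* (0.960), *Rab27a* (0.949) and *Dennd5b* (0.943) over 18 tumors. *Slc24a5* encodes a cation exchanger needed for pigmentation and ran from 153 FPKM in Free PS473 tumor 3 to 287 in M5@NKMOF-101-[Mn] tumor 1. *Trpm1* encodes a melanocyte cation channel, is also a known target gene of Mitf, and ran from 22.0 to 77.9 FPKM in Free PS473 tumor 3 and M5@NKMOF-101-[Mn] tumor 3. *Rab27a*, a GTPase that tethers melanosomes for transport, ran from 32.7 to 62.5 FPKM, and *Brca1*, a DNA repair gene, from 11.5 to 39.8. After each group's mean was subtracted these 5 had r of 0.922 to 0.983, and in the 8 tumors with little *Krt14* of 0.827 to 0.990. The median r of all 12347 genes was -0.0235. These genes were ranked on the same values, so the coefficients carry no test.

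The lowest r belonged to *Mcam* (-0.905), *Lhfpl6* (-0.882), *Hapln1* (-0.877), *Col2a1* (-0.872) and *Cd9* (-0.860). *Mcam* encodes an adhesion molecule of melanoma and vessel cells and ran from 27.5 FPKM in M5@NKMOF-101-[Mn] tumor 3 to 80.2 in PS473@CPs tumor 2. *Cd9*, a tetraspanin, ran from 11.1 to 133 FPKM. In the tumors with little *Krt14*, *Mcam* kept r = -0.856, *Hapln1* -0.964 and *Lhfpl6* -0.615. The genes nearest *Mitf* alone were *Pogk* (r = 0.890), *Zmynd11* (0.855), *Pds5b* (0.853), *Klhl42* (0.835) and *Cbx5* (0.832), none of them a pigment gene by name.

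**Figure D5:**
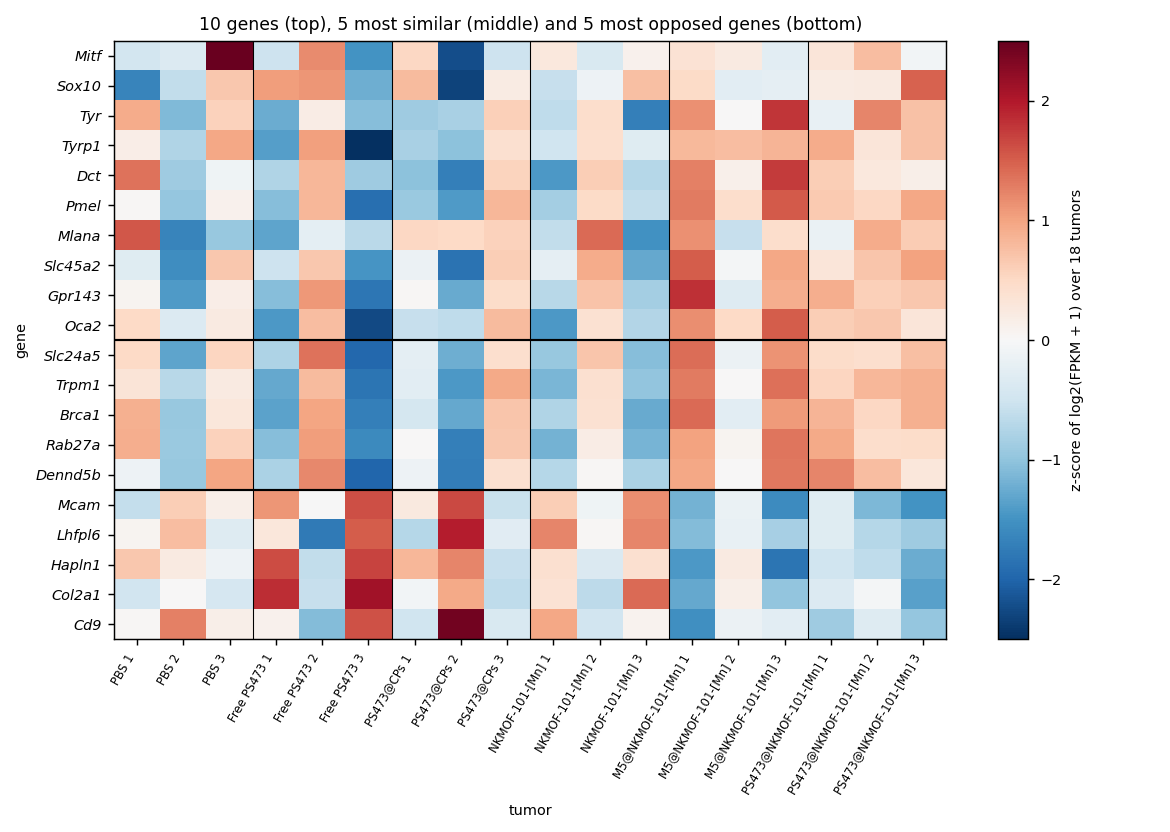
z-score of log2(FPKM + 1) over 18 tumors (colour, blue low and red high) for the 10 genes (top block), the 5 genes most like their mean (middle) and the 5 most opposed (bottom), with tumors in columns by group. Free PS473 tumor 3 and PS473@CPs tumor 2 are blue for most genes of the top 2 blocks and red for the bottom block.

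Genes around the 10 were taken as lists. Of 20 genes upstream of *Mitf* 12 were tested and 0 passed in any comparison. The 3 most abundant were *Ctnnb1*, the transcriptional partner of Wnt signaling (329 to 606 FPKM), *Mc1r*, the melanocortin receptor (27.8 to 58.6), and *Pax3*, a neural crest factor (21.6 to 37.0). Over the 12, 7 had a positive r with the mean z-score and the median was 0.219. These 3 had r of 0.804, 0.719 and 0.756, while *Hes1*, a Notch target, had -0.816 and *Ednrb*, the endothelin receptor, -0.712.

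All 36 genes of melanosome biogenesis and transport were tested and 0 passed. The most abundant were *Cd63* (304 to 528 FPKM), a tetraspanin that sorts Pmel, *Anxa2* (109 to 447) and *Rab38* (124 to 243), a GTPase that delivers pigment enzymes. *Bace2*, which cleaves Pmel, had r = 0.911 with the mean z-score, and *Myo5a*, the motor of melanosome transport, 0.829. Over the list 29 of 36 were positive with a median of 0.358.

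Of 18 melanosome channels, transporters and enzymes 14 were tested, 0 passed, and the median r was 0.522. Of the 14, 12 had a positive r, and the lowest was *Gch1* at -0.608. *Gpnmb* (761 to 1181 FPKM), *Slc24a5* and *Qdpr* (40.7 to 58.1 FPKM) were the most abundant. Of 22 other Mitf targets 19 were tested and 0 passed, with a median r of 0.410. *Gpnmb*, *Cdk4* (201 to 309 FPKM) and *Cdk2* (111 to 202 FPKM) led by level. Of the 19, 13 had a positive r. *Met*, the hepatocyte growth factor receptor, had r = 0.931 and *Tbx2* 0.837, while *Cdk4* had 0.191, *Cdh1* -0.544 and *Sirt1*, the lowest, -0.566.

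Of 20 genes of the low-Mitf melanoma state 13 were tested and 0 passed, and 9 of the 13 had a negative r with the mean z-score, with a median of -0.602. *Sparc*, a matrix protein, ran from 140 to 381 FPKM at r = -0.663, *Jun* from 28.1 to 170 at -0.602 and *Fn1* from 10.3 to 54.7 at -0.611, while *Nes*, an intermediate filament of neural progenitors, had -0.852. *Axl*, a receptor tyrosine kinase of that state, had 0.335. Stromal cells express several of these as well: the 9 tested fibroblast genes had a median r of -0.544, the 9 tested endothelial genes -0.667 and the 12 tested keratinocyte genes -0.465. The 10 proliferation genes had a median r of 0.124, and their mean log2(FPKM + 1) ran from 5.78 to 6.13 over all tumors.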

How the data were processed

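RNA of whole tumors was sequenced as poly(A) libraries, which are not stated to keep strand. The authors deposited FPKM values with a length for each of 41079 genes; the submitters' notes name GRCm39, and the aligner, counter and annotation are not given in the sources used here. Assigned fragments per tumor were recovered from the steps of low values, of which 44.9% to 48.8% were whole fragments (tolerance 0.02), so no count model was used. No other columns of tumor values were left out. Values of the 12357 genes averaging 1 FPKM or more entered as log2(FPKM + 1), pseudocount 1, a fit in R 4.3.3 with limma 3.58.1 (6 group means, trend, Benjamini-Hochberg at 0.05). The fit was tested on simulated data with changes larger than any reported main difference of the 10 genes, so smaller changes were not covered. A fold change on this scale understates that of low genes. Scores are the mean log2(FPKM + 1) of a list. Correlations used two-sided permutation tests (100000) in Python 3.11.15 with scipy 1.17.1. Groups follow sample titles. The rule for names took all 10 genes, the 3 most abundant of each pathway list and the 5 most and least similar genes; any further gene was named with its values in view. The 10 genes and all lists were chosen with earlier results of these data known. Alternatives are given at the end.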

Additional observations from a re-analysis of the deposited data

How the results depend on the processing

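None of the 10 genes passed at an adjusted p under 0.05 in any of the 295 alternative fits of the F test and the 10 comparisons (pseudocount 0.1, no filter, a filter at 0.1 FPKM, quantile and upper-quartile scaling, no trend, only the groups compared, each tumor left out in turn, a replicate block and, added after the data were seen, a fibroblast covariate). At an unadjusted p under 0.05 in limma's fit the counts were 2 of 10 in PS473@NKMOF-101-[Mn] against Free PS473 and 1 of 10 in the framework groups against the rest. The shares of all tested genes there were 4.98% and 4.56%. *Sox10* in the first of these ran from -0.0958 (without Free PS473 tumor 3) to 0.158 with a tumor left out, and was -0.0199 without PS473@NKMOF-101-[Mn] tumor 3. Replicate numbers did not pair the tumors (45 same-numbered pairs of tumors correlated at -0.73 to 0.724, median -0.0187), and with the replicate block 0 of the 10 genes were called and 4 of the 9 *Mitf* relations passed. The permutation p-values behind these 4 made no allowance for the means subtracted and tend to be too small. Of those 9 relations 3 passed as reported, 5 with quantile normalization, 0 with the fibroblast score regressed out, 0 in the 8 tumors with under 1 FPKM of *Krt14*, and between 0 and 5 with a tumor left out. The r of *Mitf* with *Mlana* turned to 0.345 with quantile normalization and ran from -0.22 to 0.0121 (without PBS tumor 3) with a tumor left out. The cause was not tested. With 3 tumors a group, the unadjusted 95% intervals for single genes reach differences of over 0.3 on the log2 scale on one side at least, so small differences were not detectable.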
